A study of Drosophila melanogaster with 3 samples.

Results

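Zaf1, the gene whose protein was tagged in these flies, lies between Jupiter and Csk on chromosome arm 3R. These 3 of 13945 protein-coding genes were described with the sequence between them and 5 kb on either side, a window of 70.3 kb (dm6, 11585386 to 11655706). The genes were chosen by the place and signal of peaks near Zaf1 in these same peak lists. The counts, places, signals and ranks given here are therefore a description and carry no test. The window held 9 of 8091 peaks in the authors' reproducible list and 21 of 30000 regions in their list from pooled replicates. It held 22, 23 and 16 of the 30000 regions in the lists of replicates 1, 2 and 3.

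The data were chromatin immunoprecipitation followed by sequencing (ChIP-seq) from whole Drosophila melanogaster prepupae of mixed sex. All 3 samples formed 1 group of biological replicates. The flies were a transgenic line with a stable C-terminal GFP fusion to CG6808, which is Zaf1, and the descriptions name an anti-GFP antibody while the antibody field names CG6808. The labels give an age of 24 days beside the prepupal stage. They do not give the insertion site of the transgene or say whether the native gene was still present, and reads from a tagged and a native copy of Zaf1 would map to the same coordinates. DNA was sonicated to between 200 and 800 bp, each replicate was called against 1 shared control alignment, and read depth was unknown. Untagged or mock samples were not analysed here, and the design holds no comparison between conditions.

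Zaf1 stands for "ZAD and Architectural Function 1", the name that RefSeq gives this zinc finger gene. Zinc finger proteins of this kind bind DNA at short sequence motifs, and architectural proteins are known for roles at insulators and promoters in flies. Jupiter encodes a protein that binds along microtubules. Csk encodes the C-terminal Src kinase, which phosphorylates Src family tyrosine kinases at their tail and so keeps them inactive.

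The 4 peaks on which the description turns are shown here by their sequence, 100 bp to either side of the summit (the position of highest signal), read from the RefSeq copy of the Release 6 (dm6) genome. Capitals mark the core CACTG, or CAGTG where it lies on the other strand, a short sequence chosen from earlier results on these peaks. The first is the highest peak of the window, at an internal promoter of Csk, shown because it holds no copy of the core. The second is the other intronic peak of Csk and the third an intronic peak of Jupiter, shown because each holds 2 copies. The last is the peak at an internal promoter of Jupiter. In both internal promoters the bases past the start site were left out, and the 1 core copy of the Jupiter promoter straddles the start site, so it is not printed whole and not in capitals.
Csk internal promoter, chr3R:11646977-11647145, + strand: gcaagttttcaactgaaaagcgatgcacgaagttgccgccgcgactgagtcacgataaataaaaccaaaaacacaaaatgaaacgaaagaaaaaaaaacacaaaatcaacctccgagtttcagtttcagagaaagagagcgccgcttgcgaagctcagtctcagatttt
Csk intron, chr3R:11649561-11649761, + strand: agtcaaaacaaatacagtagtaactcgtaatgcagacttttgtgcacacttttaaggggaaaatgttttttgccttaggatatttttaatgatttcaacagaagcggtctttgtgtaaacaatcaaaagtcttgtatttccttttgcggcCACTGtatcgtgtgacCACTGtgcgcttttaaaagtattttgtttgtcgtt
Jupiter intron, chr3R:11614590-11614790, + strand: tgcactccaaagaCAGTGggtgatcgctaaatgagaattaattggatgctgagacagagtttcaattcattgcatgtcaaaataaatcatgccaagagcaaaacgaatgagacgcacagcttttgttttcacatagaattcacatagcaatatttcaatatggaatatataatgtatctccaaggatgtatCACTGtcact
Jupiter internal promoter, chr3R:11604755-11604925, + strand: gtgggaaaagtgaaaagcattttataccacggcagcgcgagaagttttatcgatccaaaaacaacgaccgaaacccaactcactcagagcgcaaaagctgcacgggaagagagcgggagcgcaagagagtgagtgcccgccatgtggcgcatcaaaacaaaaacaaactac

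No region of any list had its summit in Zaf1. The gene (FBgn0037921, 11621466 to 11625644, minus strand, 4.18 kb) held 0 IDR summits, 0 pooled summits and 0 summits in each of replicates 1, 2 and 3. IDR, the irreproducible discovery rate, is the authors' measure of agreement between replicates, and the IDR list is their reproducible list. An empty gene body was the common case: 15.5% of protein-coding genes held an IDR summit and 27.3% held a pooled summit. Among 680 other genes within 10% of the length of Zaf1, 67.6% held no pooled summit and 82.1% no IDR summit. The nearest IDR summit lay 3893 bp from the gene and the nearest pooled summit 3325 bp, both inside Jupiter. In the replicate lists the nearest summit was 1605, 3230 and 3327 bp away. The genes nearest to Zaf1 in length among 10131 others with no region in the body were iav, a TRP channel subunit, Usf, a basic helix-loop-helix factor, and fau, each of 4.18 kb.

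The empty stretch around Zaf1 was much longer than the gene. In the pooled list no summit lay between 11618141 in Jupiter and 11647045 in Csk, a distance of 28904 bp. Of 29994 distances between neighbouring pooled summits, 698 (2.33%) were at least as long, and the median was 1316 bp. Such long distances together cover 29.6% of the arms, so a random position falls in one far more often than that share of distances implies. In the IDR list the stretch was 29472 bp, and 1058 of 8085 distances (13.1%) were at least as long. The replicate lists gave 24192 bp, 28807 bp and 23318 bp, with 3.39%, 1.81% and 2.80% of their own distances as long. Distances as long as these covered 56.7% of the arms in the IDR list, and 38.2%, 23.9% and 29.4% in replicates 1, 2 and 3, so a stretch of this length is a common place for a position to lie in, most of all in the IDR list. It was shorter in replicates 1 and 3, which each had regions inside it.

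**Figure D1:**
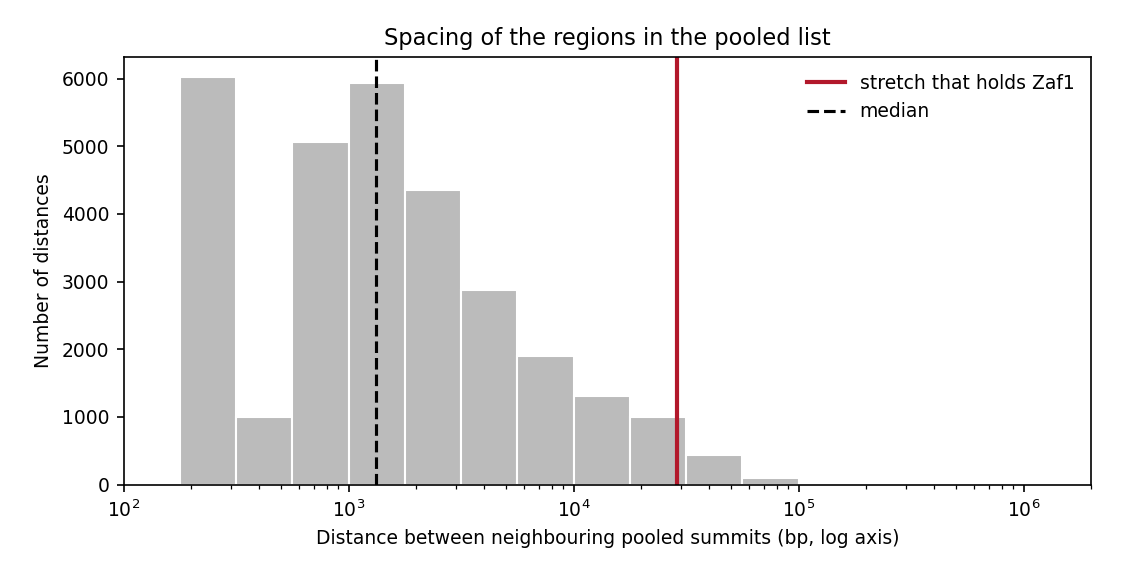
Histogram of the 29994 distances between neighbouring summits of the pooled list (x axis in bp, log scale; y axis, number of distances). The solid line marks the stretch of 28904 bp that holds Zaf1, in the long tail of the distribution, and the dashed line marks the median of 1316 bp.

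Zaf1 shared this stretch with 6 other genes whose bodies also held no summit in any list. They were CG14710, CG14711 (which lies within the span of Zaf1 on the other strand), CG6813, CG18764, CG14712 and asRNA:CR44137, an antisense RNA gene within Csk. The 5 CG genes are uncharacterized in RefSeq. The core sequence was not missing from the stretch. It held 59 copies of CACTG or CAGTG, or 2.04 per kb, against 1.85 per kb over the 6 arms. This was lower than in the whole window (2.39 per kb), the Jupiter gene (2.13) and the Csk gene (2.30). These are not separate sequences, since the stretch lies in the window and takes in most of Csk and the upstream end of Jupiter. The Zaf1 gene alone had 6 copies, or 1.44 per kb. The longer form CACAGTG, which contains the core and was sought on both strands, occurred 6 times in the stretch and 0 times in Zaf1. The stretch had 0.208 per kb, against 0.119 per kb over the arms and 0.199 per kb in the whole window.

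Csk carried the highest peak of the window (FBgn0262081, 11633278 to 11650706, minus strand, 17.4 kb, 5 annotated start sites). The peak at 11646885 to 11647226 had a signal of 533 in replicate 1, 259 in replicate 2, 243 in replicate 3 and 1041 in the pooled list. Signal is the value that the authors gave each region. It is not scaled between lists, so ranks within a list were used beside it. The peak ranked 739, 652 and 689 in replicates 1, 2 and 3, a mean of 693 ± 43.7 (SD, n = 3), and 682 in the pooled list. It stood first in the window in all 3 replicates and fell in the top 8.43% of the IDR list. Its summit lay at -69 bp from the internal start site at 11646976 (a minus sign means upstream), within an intron of the longest Csk transcript.

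The other Csk peaks were lower and lay nearer to the upstream end of the gene. The intronic peak at 11649554 to 11649762 had signals of 229, 119 and 97.7 in replicates 1, 2 and 3, with ranks of 2574, 2134 and 2655 (mean 2454 ± 280, SD, n = 3). Its signal was 0.431 ± 0.0292 (SD, n = 3) of that of the internal promoter peak in the same list, so the order of these 2 peaks did not vary between replicates. It lay +1045 bp from the upstream start site at 11650706. The peak at 11650370 to 11650839 was near the lower end of the IDR list, with a pooled signal of 161 against 152 at the lowest IDR peak. It ranked 18310 in replicate 1 and 9066 in replicate 2, and replicate 3 had no summit within 100 bp, the nearest being 214 bp away. Its summit fell in the 5' UTR of Csk, +101 bp from the start site.

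Around the upstream start site of Csk the lists placed summits differently. Pooled summits were called at 11650605 and 11650841, with signals of 161 and 58.8. Replicate 1 had summits at 11650491 and 11650690, replicate 2 at 11650581 and 11650802, and replicate 3 only at 11650819, with a signal of 46.9 and rank 6596. The pooled regions here were 470 bp wide with summits 236 bp apart, so they overlap each other.

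**Figure D2:**
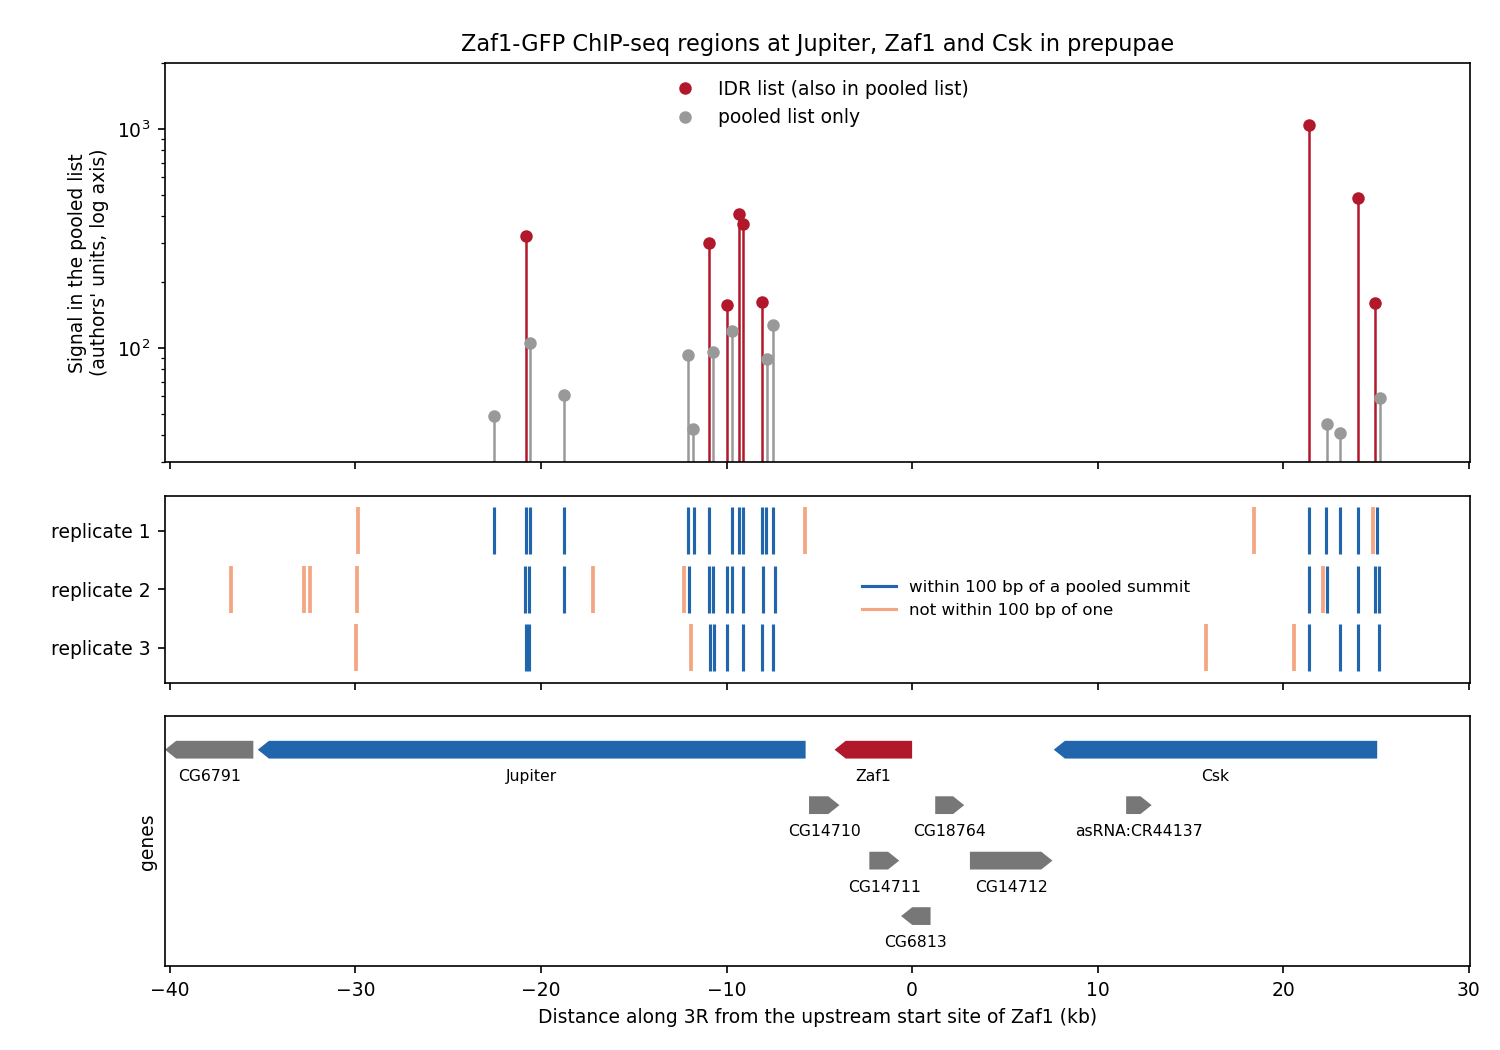
Map of the window on 3R, with the distance from the upstream start site of Zaf1 in kb on the x axis. The top panel gives the pooled signal of each summit in the authors' units on a log axis, the middle panel the summits of each replicate, and the bottom panel genes with their direction. The empty stretch of 28904 bp runs from the upstream part of Jupiter across Zaf1 into Csk, where the peak of signal 1041 stands highest.

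Jupiter held most of the summits of the window (FBgn0051363, 11590386 to 11619906, minus strand, 29.5 kb, 3 start sites). It had 6 of the 9 IDR summits and 15 of the 21 pooled summits, and 15, 16 and 10 summits in replicates 1, 2 and 3. Csk had 3 IDR summits, 5 pooled summits and 7, 5 and 5 replicate summits. Jupiter is long, and 19 of 155 other genes within 10% of its length (12.3%) also held at least 6 IDR summits, with a median of 2. For Csk, 58 of 237 genes of similar length (24.5%) held at least 3, with a median of 1. Of 58 other genes with exactly 6 IDR summits, the nearest in length were Pli (29.9 kb), kst, which encodes a heavy spectrin chain (31.3 kb), and CG42741 (31.9 kb).

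The Jupiter peaks fell into 1 peak at an internal start site and a group of 5 in intron sequence nearer the upstream start site. The other internal start site, at 11592244, had no IDR or pooled summit within 500 bp. The peak at 11604590 to 11605059 lay -71 bp from the internal start site at 11604754, a place like that of the highest Csk peak. It had signals of 206, 53.9 and 66.6 in replicates 1, 2 and 3, with ranks of 2914, 5445 and 4328 (mean 4229 ± 1268, SD, n = 3). Relative to the highest Csk peak of the same list its signal was 0.290 ± 0.0907 (SD, n = 3). A second pooled summit 203 bp away at 11605028 was outside the IDR list, with a signal of 105 and a mean replicate rank of 22100 ± 4799 (SD, n = 3).

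The group of 5 IDR summits spanned 2883 bp, from 11614690 to 11617573, and lay 2333 to 5216 bp downstream of the upstream start site. The pooled list placed 11 summits in and around the group, over 4562 bp, and all 11 were intronic. The limits of this group were set after its summits were seen. Across the IDR list, 37 summits (0.457%) begin a run of at least 5 as closely spaced. Only the first summit of a run was counted, so the share of summits that lie in such runs is larger. The regions with summits at 11616306 and 11616522, 216 bp apart, overlap each other, so the summits of the group need not be separate sites. With summits within 250 bp merged, the window held 8 IDR and 15 pooled summits. The share of closely spaced runs was counted without merging. The spacing of IDR summits over the window had a median of 1023 bp, against 3980 bp over the whole list, and ran from 216 to 29472 bp.

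Within the group, the replicates agreed on some places and not on others. The peak at 11614455 to 11614924 had signals of 118, 114 and 85.4 in replicates 1, 2 and 3 and ranks of 5850, 2248 and 3166 (mean 3755 ± 1872, SD, n = 3). The peak at 11616287 to 11616756 had signals of 164, 80.9 and 110 and ranks of 3920, 3344 and 2302 (mean 3189 ± 820, SD, n = 3). The peak at 11617338 to 11617807 was lower, with signals of 74.1, 25.0 and 52.3 and ranks of 9726, 13013 and 5786 (mean 9508 ± 3618, SD, n = 3). These 3 peaks were matched in every replicate, but the order of the first and second differed between replicate 2 and the other two.

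The remaining peaks of the group were matched in fewer replicates. The peak at 11615450 to 11615919 had signals of 53.5 in replicate 2 and 45.9 in replicate 3, and replicate 1 had its nearest summit 234 bp away. The peak at 11616234 to 11616357 was the highest Jupiter peak of the pooled list, with a signal of 411 and rank 2610, and was only 124 bp wide. Only replicate 1 had a summit within 100 bp of it, with a signal of 226 and rank 2622. Its neighbour at 11616522 lay 216 bp away and was matched in every replicate. At this matching distance the highest Jupiter peak of the pooled list therefore had a matching summit in only 1 library. The replicate 2 and 3 summits nearest to it were 242 and 216 bp away. Their regions, 11616330 to 11616765 and 11616294 to 11616749, overlapped this peak, but the region of replicate 2 did not reach its summit. Both regions had the most common width of their list, 436 bp in replicate 2 and 456 bp in replicate 3. The overlap therefore does not show whether replicates 2 and 3 had signal at this summit, and coverage was not read.

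**Figure D3:**
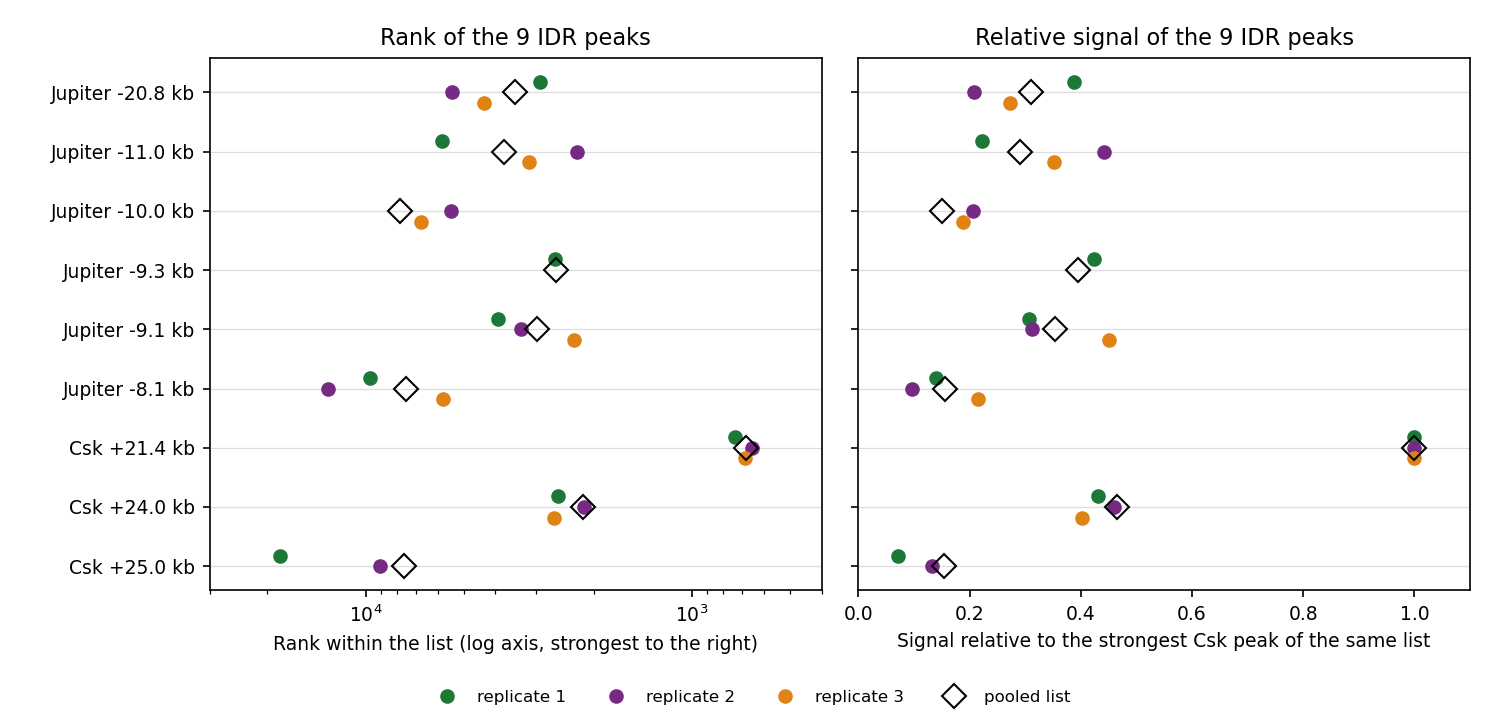
Rank (left, log axis with the strongest to the right) and signal relative to the highest Csk peak of the same list (right, no unit) for the 9 IDR peaks, named by gene and by the distance in kb from the upstream start site of Zaf1. Filled points are the 3 replicates and open diamonds the pooled list. The highest Csk peak has ranks of 652 to 739, all ahead of every other peak, and peaks with fewer than 3 filled points were unmatched in the missing replicates.

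At a distance of 100 bp, 8 of the 9 IDR peaks were matched in replicate 1, 8 in replicate 2 and 7 in replicate 3. Over the whole IDR list the shares were 96.8%, 91.6% and 90.8%. In all 3 replicates 6 of 9 were matched, against 82.4% of the IDR list. With 9 peaks, each peak moves the share by over 10 percentage points. For the 21 pooled summits, 8 were matched in all 3 replicates, against 35.0% of the pooled list, and this count was 13 in replicates 1 and 2 without replicate 3. The 12 pooled summits outside the IDR list had signals of 41.0 to 127 and ranks of 9808 to 28293. Of these, 2 were matched in all 3 replicates (17.6% over the list), 7 in 2 and 3 in 1. The IDR and pooled lists were derived from the same 3 replicates, so matches to the replicate lists are not independent of them.

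Some replicate regions had no counterpart in the pooled list. Replicate 1 had a region at the upstream start site of Jupiter (11619768 to 11619949) with a signal of 268 and rank 2124, and its summit lay +45 bp from the start site in the 5' UTR. Its nearest pooled summit was 1720 bp away, and the nearest summits of replicates 2 and 3 were 1625 and 1722 bp away. Among the 2124 strongest regions of replicate 1, 23 (1.08%) had no pooled summit within 500 bp. The upstream promoter of Jupiter, used by 4 of its 7 annotated transcripts, thus had a region in 1 list of 5.

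A weaker place in Jupiter was called in every replicate and yet was outside the pooled list. Its summits at 11595795, 11595709 and 11595671 in replicates 1, 2 and 3 lay within 124 bp of each other. Their signals were 65.5, 28.8 and 24.4 and their ranks 11030, 11097 and 15041. The nearest pooled summit was 7306 bp from that of replicate 1. Of 12569 replicate 1 regions with a summit of both other replicates within 150 bp, 62 (0.493%) had no pooled summit within 500 bp. Within the empty stretch, replicate 1 had 2 summits, replicate 2 had 0 and replicate 3 had 2. Apart from the Jupiter promoter region, these ranked 29844 in replicate 1, and 16554 and 22544 in replicate 3, all in Csk introns.

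The window was fairly rich in IDR peaks for its length. Its 9 summits stood at the 84.9th percentile of 133461 windows of the same length placed every kb on the 6 arms, whose median was 3. Among 13937 windows centred on protein-coding genes they stood at the 82.6th percentile, and the median was 4. Signals were near those of the whole list, with a median of 324 here and 285 over all IDR peaks. Peaks stronger than the median of the window lay just outside, but only that of signal 2082 exceeded the highest peak inside, at 1041. On the Csk side, peaks 325 and 1112 bp beyond the window, at CG42327, had signals of 665 and 2082 and ranks of 1401 and 167. On the other side the nearest peak was 3006 bp out in an intron of wkd, with a signal of 545 and rank 1843. The outermost IDR summits inside were those at 11604825 (signal 324) and 11650605 (signal 161).

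The core sequence was found near 3 of the 9 IDR summits within 100 bp, and near 4 of the 12 other pooled summits. Over the IDR list 43.4% had it, over the other pooled summits 37.7%, and over 664860 windows of 201 bp tiled along the arms 29.7%. The copies printed above lie at +52 and +68 bp from the summit in the Csk intron and at -85 and +93 bp in the Jupiter intron. The Jupiter internal promoter had its copy at -70 bp. Distances here run along 3R to the middle base of the core, and 11.8% of all IDR summits had at least 2 copies. The highest Csk peak had none in its 201 bp.

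**Figure D4:**
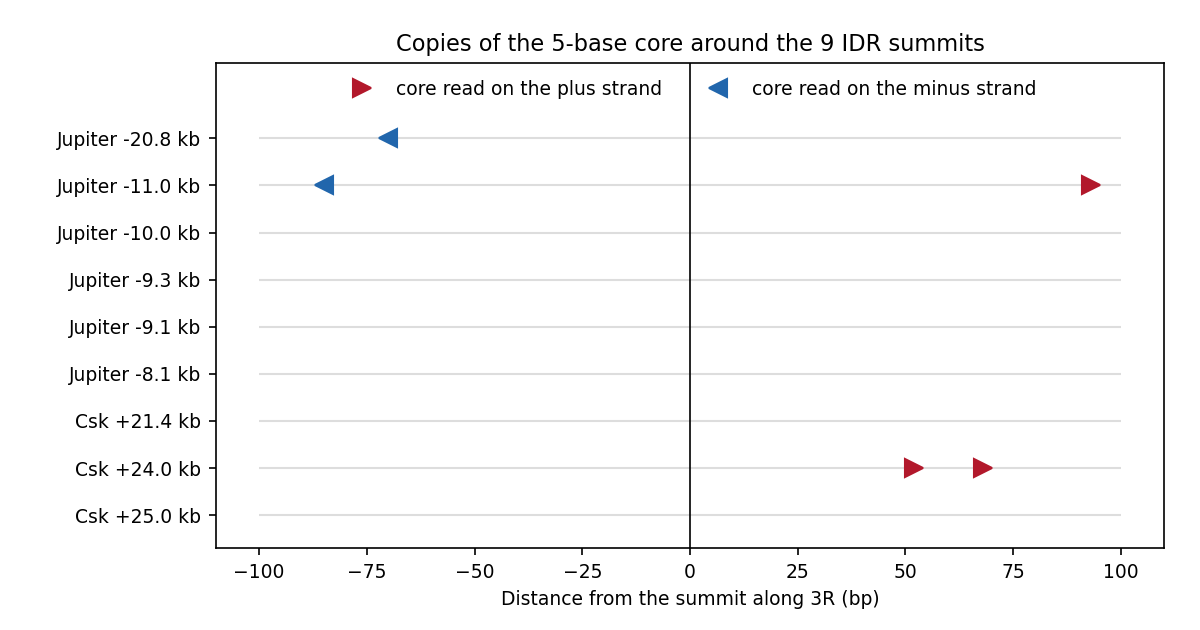
Position of each CACTG core (plus strand, pointing right) and CAGTG core (minus strand, pointing left) in bp from the summit along 3R, for the 9 IDR peaks named by gene and distance from Zaf1 in kb. The 5 copies lie in 3 peaks, at 52 bp or more from the summit, and the other 6 peaks have none within 100 bp.

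Other short sequences were also sought on both strands. CACAGTG occurred at 1 of the 9 summits, the Csk intron, where it overlaps the core at +68 bp (6.45% of the IDR list, 2.27% of tiled windows). GAGAG occurred at 3, the internal promoters of Jupiter and Csk and the Csk upstream end (27.9% of the IDR list, 21.5% of tiled windows). TATCGATA occurred at 0 (1.26% of the IDR list, 0.564% of tiled windows). These 3 promoter peaks had 48.3%, 44.3% and 47.3% G and C in their 201 bp, against a median of 37.3% over the IDR list. The intronic peaks ran from 30.8 to 54.7%.

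The promoter peaks nearest in rank to the highest Csk peak were looked up. Among 1974 genes with an IDR summit within 500 bp of a start site and a match in every replicate, CG9399 had the nearest ranks, 778, 639 and 700 in replicates 1, 2 and 3. Next came CG1792 and Mnat9, which share 1 peak with ranks of 695, 679 and 694. These genes were picked for ranks near those of Csk, 652 to 739, so the overlap in rank follows from the choice.

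Other genes of tyrosine kinase signalling also had promoter peaks. Of 18 genes of the Csk and Src pathway, 8 had an IDR summit within 500 bp of a start site, against 18.1% of protein-coding genes, and 7 of the 17 other than Csk did. Pvr, a receptor tyrosine kinase, had the highest signal of these, 2693 (rank 110), followed by Btk, a Tec family kinase, with 1713 (rank 242). Shc, an adaptor of receptor tyrosine kinases, had 1158 (rank 566). Src64B, a Src family kinase, had 444, Abl, another cytoplasmic tyrosine kinase, had 314, Stat92E, the JAK/STAT transcription factor, had 256, and shg, the E-cadherin gene, had 231. Src42A, the other Src family kinase, had 0 IDR summits in its body and 13 pooled ones. Also without a promoter peak were p130CAS, Fak, Ptp61F, Shark, drk, wts, bsk, arm and p120ctn. The listed genes are long, with a median of 17.0 kb and 2 start sites against 2.17 kb and 1 over all protein-coding genes. The part of length and of start sites in the count was not tested.

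Of 24 genes of microtubule-associated proteins, 9 had a promoter peak, against the same 18.1% of protein-coding genes, and 8 of the 23 other than Jupiter did. CLIP-190, a protein of growing microtubule ends, had the highest signal, 2247 (rank 144). The others lay between 156 and 392, namely stai (stathmin), shot (a spectraplakin), Jupiter itself, futsch (the MAP1B relative), spas (the severing enzyme spastin), Map205, chb (CLASP) and mars. Jupiter, at 324, came after stai and shot. This list had a median length of 7.42 kb and a median of 2 start sites, against 2.17 kb and 1 over all protein-coding genes, and their part in the count was not tested. A summit near a start site does not show that the gene is regulated.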

How the data were processed

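Anti-GFP ChIP-seq regions of 3 biological replicates in 1 group were taken from 5 deposited dm6 lists, namely 1 per replicate, 1 from all replicates pooled, and the thresholded IDR list. Regions of each replicate were called, per the file headers, against 1 shared control alignment. The sources used here give no aligner or peak caller. The deposited signal of each region (column 7, by the column order of the format) is the authors' value and was used only within a list. The dm3 lists and coverage tracks were not used here.

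Genes came from Ensembl release 115 and sequence from the RefSeq copy of Release 6, on 6 arms. Summits were matched within 100 bp, a promoter peak lay within 500 bp of any start site, and motifs were sought within 100 bp of a summit on both strands. The genes, lists and motifs were chosen with earlier results of these data known. Named were Zaf1, Jupiter, Csk, the genes in the window (1 is not reported here), the 3 genes nearest in replicate ranks (Csk), in length at equal peak number (Jupiter), or in length with no region (Zaf1), and list members with a promoter peak. The group of 5 Jupiter peaks, the replicate regions outside the pooled list, the peaks outside the window, and list members without a promoter peak were chosen once their values were known. The authors' labels number the samples as biological replicates. SDs measure the spread over these 3 libraries, and since depth was unknown no counting interval was given. The matching of summits was tested on simulated data, and window counts and merging on small made-up examples. Alternatives were other flanks, matching distances, promoter and motif windows, merged neighbouring summits, and each replicate left out. Python 3.11.15, numpy 2.4.6, pandas 2.3.3 and matplotlib 3.10.9 were used.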

Additional observations from a re-analysis of the deposited data

How the results depend on the processing

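Of 39 alternative settings over 10 results, 34 stayed within 1.5 times the reported value (for the Csk rank, within 1 SD) and 5 moved it further. Within that tolerance, the 6 IDR summits matched in all 3 replicates became 4 with a distance of 50 bp and 9 with 250 bp, the 9 IDR summits became 13 with flanks of 10 kb, and the 9 microtubule genes became 6 to 8 when 1 replicate was left out. The 8 pooled summits matched in all 3 replicates became 5 with a distance of 50 bp and 15 with 250 bp, and 9 to 13 when 1 replicate was left out. The 3 IDR summits with the core became 0 within 50 bp and 6 within 150 bp. Zaf1 held 0 IDR summits under every alternative run, and the mean rank of the highest Csk peak ran from 671 to 714 without 1 replicate. Counts of 9 and 21 summits are small, and region widths limit the separation of close neighbours. No paired analysis was possible because the samples form 1 group.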
